A study of Mus musculus with 63 samples.

Results

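Sorted β cells of ICR mice on postnatal day 10 were compared with β cells of adult ICR mice. The members were taken from the sample titles and are 26 libraries of the 63 in the series, 5 at day 10 (P10) and 21 from adults. Mice of both groups had the genotype Cherry/+; Ins2-Cre/+ and were labelled wild type, so that the red fluorescent protein mCherry was switched on in cells in which the Ins2-Cre driver had been active. Islets were digested and purified on a density gradient, and mCherry-positive cells were sorted for RNA sequencing. Every cell in the data, young or old, thus carried the Cre driver and passed the same colour gate. Adults were 84 to 364 days old (median 158), 11 female and 10 male. Sex, weight and glucose were not labelled for the P10 libraries, and the labels do not say whether a P10 library came from 1 pup or a pool. Titles of P10 replicates 2 and 3 begin with the same number, whose meaning is not given. Adult labels carry an age, a weight and a glucose value of their own. Where samples are not separate animals, p-values measure only the spread between samples. RNA was extracted on Qiagen columns in 17 adults and in P10 replicates 1 and 2, and with TRIzol in 4 adults and in P10 replicates 3, 4 and 5. Extraction was therefore a covariate in each fit of these groups. Labels also carry an S with a number, whose meaning is not given. It was above 60 in 4 of 5 P10 libraries and 2 of 21 adults.

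The β cell is the endocrine cell that stores and releases insulin. Around birth it still divides, and its response to glucose is immature. Over the weeks that follow, through suckling and weaning, division slows, fetal transcripts are lost, and the machinery for regulated hormone release is completed. Division needs the licensing and copying of DNA, under E2F transcription factors, and then the building of a spindle, under a transcription programme of the G2 and M phases. Regulated release needs channels, receptors that tune secretion, vesicle proteins, and the peptides and small transmitters packed beside insulin.

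Library totals were 33055870 to 42890454 expected counts at P10 and 28402805 to 44485028 in adults, and no pair of libraries held identical values. Values below are counts per 1000000 counts (CPM) scaled with edgeR's TMM factors. The 5 P10 values of a gene always follow replicates 1 to 5, and adult values are the lowest to the highest of 21 libraries. Of 12 β cell markers, all were detected in both groups, and they held 39.8 to 45% of counts at P10 (median 44%) and 20.6 to 59.2% in adults (median 38.5%). Other cell types left RNA in both groups. The 28 acinar genes, which encode digestive enzymes, held 0.0537 to 0.668% at P10 (median 0.353%) and 0.0335 to 29.7% in adults (median 8.18%), and 23 of them were called higher and 1 lower in adults. Mesothelial genes held 0.0306 to 0.0862% at P10 against 0.00197 to 0.00994% in adults, with 6 of 11 called lower and 1 higher. Of these genes Msln alone was at 224.9 to 664 CPM at P10 and 0.0556 to 22.9 CPM in adults. The mesothelial share at P10 thus rests largely on this 1 gene. Of 18 stromal and mural genes, 11 were called lower in adults. Their shares were 0.00391 to 0.0540% at P10 and 0.00355 to 0.0120% in adults. Beside these counts of markers, 8.84% of all tested genes were called higher in adults and 9.98% lower. Erythroid and hepatocyte markers had no member called, and the erythroid gene Slc4a1 was at 0 in every P10 library. Y-linked genes were present in all 5 P10 libraries (summed level 27.1 to 152 CPM), as in the adult males (33.2 to 97.3 CPM), while no adult female exceeded 0.654 CPM.

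How far do β cells of day 10 stand from adult β cells? Of 16092 genes tested, 3029 (18.8%) differed at an adjusted p below 0.05 in edgeR's quasi-likelihood test. Of these, 1423 were higher in adults (8.84% of tested genes) and 1606 were lower (9.98%). Of the called genes, 1557 (9.68% of tested genes) differed by at least 2-fold. For 767 genes (4.77%) the range of the P10 libraries and that of the adults did not overlap. The median log2 fold of all tested genes, adult minus P10, was 0.04. The insulin genes themselves were not among the called: the log2 fold was -0.38 ± 0.27 (adjusted p = 0.35) for Ins1 and 0.04 ± 0.30 (adjusted p = 0.95) for Ins2. With adults of at most 5% acinar counts, 9 of 21, 2288 genes were called, and 2086 of the 3029 were among them. That subset and the acinar share were looked at after the data had been seen. Other fits compared Qiagen libraries alone (17 adults against 2 P10), TRIzol libraries alone (4 against 3), adults of 1 sex, or the 6 adults of at most 130 days with P10. Where such a fit ended the call of a gene described below, the fit is named beside the gene, and in each case the direction was kept.

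**Figure D1:**
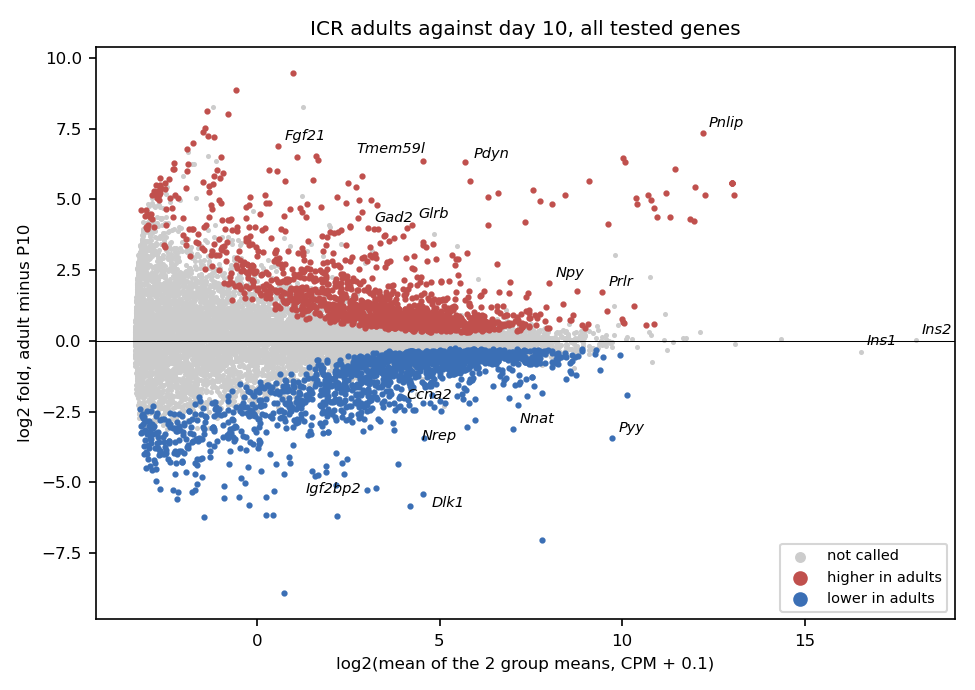
Log2 fold change (adult minus P10) of each of the 16092 tested genes against the mean of the group means in CPM on a log2 scale. Red points are the 1423 genes called higher in adults, blue points the 1606 called lower, and grey points were not called. Tmem59l and Pdyn lie toward the top, Dlk1 and Igf2bp2 near the bottom, and Ins1 and Ins2 close to 0 at the far right.

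Genes of DNA replication and of mitosis were lower in adult β cells. In the replication list, 27 of 40 members fell and none rose, against 9.98% of all tested genes lower, and the median log2 fold of the list was -1.02. All 40 had a log2 fold below 0. In the list of spindle and mitosis genes, 49 of 53 fell and none rose, with a median log2 fold of -2.26, and in 35 of the 53 the P10 and adult ranges did not overlap (4.77% of all tested genes). Both lists, like the others used here, were chosen with earlier results of these data known. In sorted bulk RNA, fewer cells that carry a transcript and less of it in each cell cannot be told apart.

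Rfc5, a subunit of the clamp loader that places the sliding clamp on DNA, stood at 35.5, 33.9, 37.8, 37.9 and 40.3 CPM at P10 and at 6.84 to 16.9 CPM (median 10.9) in adults. Each P10 library lay above each adult, and the log2 fold was -1.64 ± 0.16 (adjusted p = 9.77e-12). Mcm6, a subunit of the replicative helicase, was at 44.8, 36.72, 49.8, 43.4 and 27.7 CPM at P10 and 7.31 to 25.8 CPM (median 12.7) in adults. These ranges did not overlap either, although P10 replicate 5 lay close above the highest adult. The log2 fold of Mcm6 was -1.45 ± 0.26 (adjusted p = 2.32e-05), and it was -1.89 ± 0.34 (adjusted p = 2.38e-05) for Mcm3, another helicase subunit. Rrm2, the regulatory subunit of ribonucleotide reductase, which supplies the building blocks of DNA, was at 21.3, 12.3, 22.4, 26.1 and 24.8 CPM at P10 and 2.80 to 17.6 CPM (median 5.32) in adults. P10 replicate 2 lay far below the other 4 libraries and within the adult range, and the log2 fold was -1.64 ± 0.29 (adjusted p = 2.18e-05). Pcna, the sliding clamp itself, fell less (-0.57 ± 0.13 (adjusted p = 0.0011)), with overlap. Calls were lost among Qiagen libraries for Rrm2 and Pcna, and among TRIzol libraries for Mcm6 and Pcna.

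Among the mitotic genes, Ccna2, a cyclin of S phase and mitosis, stood at 32.7, 18.46, 24.35, 24.9 and 25.6 CPM at P10 and 1.90 to 7.86 CPM (median 4.37) in adults. All P10 libraries lay above all adults, and the log2 fold was -2.28 ± 0.28 (adjusted p = 1.26e-08). Ccnb2, a cyclin that drives entry into mitosis, fell from 18.9 to 27.5 CPM to 0.818 to 8.41 CPM (median 3.11), a log2 fold of -2.89 ± 0.46 (adjusted p = 3.23e-06). Cdca8 and Aurkb, partners in the complex that corrects spindle attachments, had log2 folds of -3.03 ± 0.39 and -2.71 ± 0.48. Kif11 and Kif22, motor proteins of the spindle, had -2.64 ± 0.42 and -2.26 ± 0.29, and Mad2l1, a spindle checkpoint protein, had -1.79 ± 0.23. In each of these 5 genes the P10 and adult ranges were apart. Mki67, the antigen widely used to mark cycling cells, was at 26.1, 39.15, 20.2, 24.04 and 23.54 CPM at P10. Adults ranged over 0.169 to 15.8 CPM (median 4.83), all below the lowest P10 library, so that the transcript was reduced and not lost, with a log2 fold of -2.43 ± 0.43 (adjusted p = 2.26e-05). Other fits ended the call among TRIzol libraries for Ccnb2, Aurkb and Kif11.

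The promoters of both lists were read for motifs of the factors known to drive them. RefSeq windows on GRCm38.p6, the assembly behind mm10, from 250 bases before to 50 bases after a gene's start, were found for 12552 of the 16092 tested genes, 15922 windows in all. Matches were counted on both strands. The E2F motif was searched as TTTCCCGC, TTTCGCGC, TTTGCCGC or TTTGGCGC. It was found in 14 of 36 promoters of replication genes (38.9%), in 4 of 50 of mitosis genes (8.0%) and in 3.43% of all promoters. The cell cycle homology element (CHR), searched as TTTGAA, had the opposite distribution, with 37 of 50 promoters of mitosis genes (74%), 4 of 36 of replication genes (11.1%) and 12.6% of all. CCAAT, the letters read by NF-Y, stood in 74% of mitosis promoters, 55.6% of replication promoters and 37.3% of all. None of these motifs contains another. A match describes the letters of a window and shows no binding.

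The windows below are the called members of smallest adjusted p in each list that hold the motif before the start, 100 bases each, printed 5′ to 3′ in the gene's direction with the motif in capitals, on either strand. For replication, the E2F match in Rfc3 ends 3 bases before the annotated start, that in Mcm6 ends 40 bases before it, and that in Mcm7 lies 158 bases before it and reads on the other strand.
Mcm6, chr1:128359706-128359805, minus strand: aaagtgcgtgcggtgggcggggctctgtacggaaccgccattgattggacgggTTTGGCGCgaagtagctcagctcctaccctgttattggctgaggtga
Rfc3, chr5:151651209-151651308, minus strand: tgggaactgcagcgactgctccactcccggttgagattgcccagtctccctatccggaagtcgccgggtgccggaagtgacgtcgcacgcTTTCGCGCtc
Mcm7, chr5:138171995-138172094, minus strand: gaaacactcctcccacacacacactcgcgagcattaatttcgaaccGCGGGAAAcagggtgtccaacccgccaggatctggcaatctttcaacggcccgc
For mitosis, the CHR match lies 12 bases before the start in Kif22, on the other strand, 13 bases in Cdc20 and 25 bases in Prc1.
Kif22, chr7:127042421-127042520, minus strand: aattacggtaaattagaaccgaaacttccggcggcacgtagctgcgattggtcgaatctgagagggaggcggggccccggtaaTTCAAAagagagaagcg
Prc1, chr7:80294376-80294475, plus strand: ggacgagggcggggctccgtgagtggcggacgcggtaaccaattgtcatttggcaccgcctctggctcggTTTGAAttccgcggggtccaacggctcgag
Cdc20, chr4:118437344-118437443, minus strand: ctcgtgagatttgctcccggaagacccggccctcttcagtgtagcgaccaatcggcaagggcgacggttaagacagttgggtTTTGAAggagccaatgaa
Cdc20 activates the ubiquitin ligase that starts anaphase, and Prc1 bundles the microtubules of the spindle midzone. The log2 folds of these genes were -0.83 ± 0.17 for Rfc3, -0.68 ± 0.16 for Mcm7, -2.44 ± 0.38 for Prc1 and -2.25 ± 0.35 for Cdc20, all called. Not every call held, since it was lost among Qiagen libraries for Rfc3, among TRIzol libraries for Mcm7, and with adults of at most 130 days for Rfc3.

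**Figure D2:**
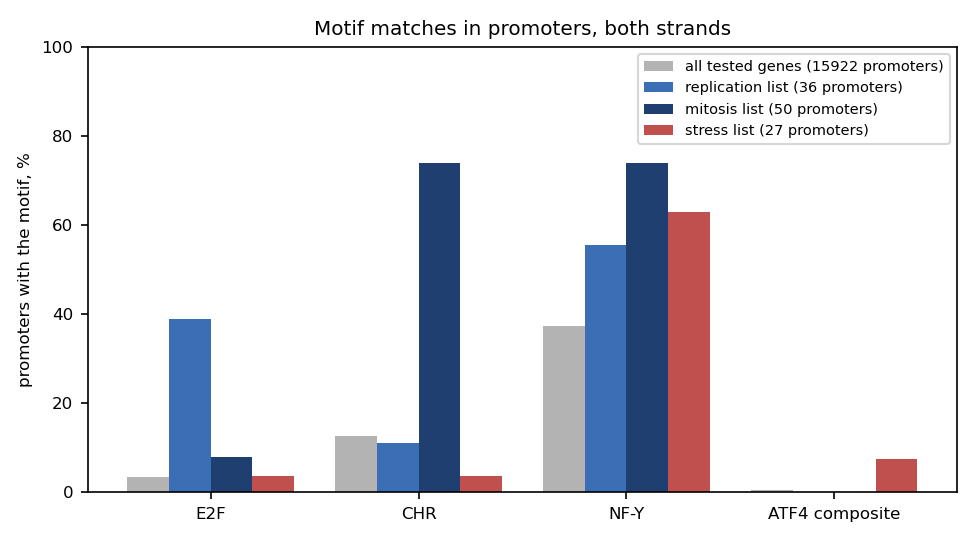
Share of promoters (%) that hold each motif on either strand, for all promoters of tested genes (grey), the replication list and the mitosis list (blue) and the stress list (red). E2F stands out in the replication list at 38.9% and CHR in the mitosis list at 74%.

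The regulators upstream of these lists moved less uniformly. Of 22 G1 cyclins, kinases and E2F genes, 9 fell (40.91%) and 3 rose (13.64%), with a median log2 fold of -0.48. Among all tested genes 9.98% fell and 8.84% rose. The largest fall was that of Mycl, a transcription factor of the Myc family, at 2.31, 2.45, 3.43, 1.49 and 2.80 CPM at P10 and 0 to 0.354 CPM (median 0.0219) in adults. Adult β cells were near 0 for Mycl in most libraries, and no adult reached the lowest P10 value (log2 fold -5.31 ± 0.78 (adjusted p = 5.87e-07)). The size of the Mycl fold rests on very few adult counts. Myc itself fell as well, from 9.22 to 17.8 CPM to 1.05 to 8.70 CPM (median 2.93), with a log2 fold of -1.79 ± 0.34 (adjusted p = 7.13e-05). Across the adults Myc followed the acinar sum (Spearman 0.71 over 21 libraries), and among adults of at most 5% acinar counts the fold was -2.42 (adjusted p = 3.54e-07). Cdk2, a kinase that starts S phase, and Foxm1, a transcription factor of the mitotic programme, fell with -1.87 ± 0.36 (adjusted p = 8e-05) and -1.75 ± 0.48 (adjusted p = 0.00555), each without overlap. Ccnd3, a D cyclin, rose (0.90 ± 0.20 (adjusted p = 0.000787)), and so did Ccnd2, the D cyclin most studied in β cells. Ccnd2 was at 620.1, 1116, 612, 734 and 777 CPM at P10 and 629.6 to 2390.0 CPM (median 1233) in adults, ranges that overlapped (log2 fold 0.62 ± 0.21 (adjusted p = 0.0309)). The Ccnd2 fold was 0.49 and 0.59 without P10 replicates 1 and 3 in turn (adjusted p = 0.077 to 0.152), no longer called. The call ended among Qiagen libraries for Myc, Cdk2, Ccnd3 and Ccnd2, among TRIzol libraries for Mycl, Foxm1 and Ccnd2, with adults of at most 130 days for Foxm1 and Ccnd2, and with adults of at most 5% acinar counts for Foxm1 and Ccnd2. Alternative fits lost the call with male adults for Foxm1, and with female adults for Ccnd2.

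Genes that restrain the cycle were called in both directions, 26.7% together beside 18.8% of all tested genes. Of 15 inhibitors, 3 rose, 1 fell and 11 were not called, and the median log2 fold was -0.04. Btg1 and Tob1, members of an antiproliferative family, rose with log2 folds of 0.87 ± 0.17 (adjusted p = 0.000127) and 0.78 ± 0.17 (adjusted p = 0.000416), each with no overlap between the groups. Cdkn2b, which encodes the kinase inhibitor p15, rose as well (0.81 ± 0.21 (adjusted p = 0.00402)). Its neighbour Cdkn2a, whose product p16 is the inhibitor most often tied to the age of β cells, was barely measured at either age: P10 libraries held 0.0224, 0, 0.0218, 0.0949 and 0 CPM and adults 0 to 0.267 CPM (median 0.0741), and the gene was not called (adjusted p = 0.262). Cdkn1a had 0.12 ± 0.25 (adjusted p = 0.801) and Cdkn1c, an imprinted inhibitor, -0.67 ± 0.49 (adjusted p = 0.371), and neither was called. Trp53, the tumour suppressor p53, was called lower (-0.43 ± 0.14 (adjusted p = 0.0191)), and its fold was -0.39 and -0.39 without P10 replicates 2 and 4 in turn (adjusted p = 0.0609 to 0.0857), past the threshold no more. Under other settings the call was lost among Qiagen libraries for Cdkn2b and Trp53, among TRIzol libraries for Trp53, with adults of at most 130 days for Trp53, and with adults of at most 5% acinar counts for Trp53. Calls were lost with female adults for Trp53, and with a term for the S number for Trp53.

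Writers of DNA methylation were lower in adults. Of 29 Polycomb and DNA methylation genes, 12 fell (41.38%) and 2 rose (6.897%), with a median log2 fold of -0.36. Among all tested genes 9.98% fell and 8.84% rose. Dnmt3a, a methyltransferase that sets new methyl marks (chromosome 12, 3801559 to 3914443), was at 295, 291, 244, 239 and 262 CPM at P10 and 39.3 to 114.6 CPM (median 63.4) in adults. The highest adult stayed far below the lowest P10 library, and the log2 fold was -1.95 ± 0.18 (adjusted p = 6.7e-13). Dnmt3b, its relative, fell too (-1.37 ± 0.26 (adjusted p = 7.79e-05)), with the highest adult inside the P10 range. Tet1, an enzyme that starts the removal of methyl marks, was at 15.1, 22.7, 10.4, 15.8 and 13.98 CPM at P10 and 1.62 to 9.59 CPM (median 5.32) in adults, again without overlap (log2 fold -1.61 ± 0.26 (adjusted p = 3.06e-06)). Dnmt1, which copies methylation after replication, had -0.57 ± 0.20 (adjusted p = 0.0395), and Uhrf1, its guide to replicated DNA, -1.73 ± 0.42 (adjusted p = 0.00179). Without single libraries Dnmt1 stood at -0.42, -0.48 and -0.58 without P10 replicates 1, 2 and 3 in turn (adjusted p = 0.0694 to 0.23). Both genes ran against the acinar sum across adults and lost their calls among adults of at most 5% acinar counts (-0.35 (adjusted p = 0.364) and -1.21 (adjusted p = 0.101)). Within Polycomb, the methyltransferase Ezh2 fell (-0.89 ± 0.31 (adjusted p = 0.0352)) while its relative Ezh1 rose (0.59 ± 0.17 (adjusted p = 0.0103)). Both calls lay near the threshold: Ezh2 had -0.93, -0.93, -0.83, -0.85 and -0.91 without P10 replicates 1, 2, 3, 4 and 5 in turn (adjusted p = 0.0528 to 0.0834), and Ezh1 had 0.52 without P10 replicate 2 (adjusted p = 0.0566). Cbx7, a reader subunit of the other Polycomb complex, rose from 4.83 to 9.39 CPM to 8.14 to 20.5 CPM (median 15.4), a log2 fold of 1.28 ± 0.24 (adjusted p = 5.42e-05). Other fits ended the call among Qiagen libraries for Dnmt3b, Ezh2 and Ezh1, among TRIzol libraries for Dnmt1, Uhrf1, Ezh2, Ezh1 and Cbx7, with adults of at most 130 days for Dnmt3b, Dnmt1, Ezh2 and Ezh1, and with male adults for Ezh2 and Ezh1. Not every call held, since it was lost with female adults for Dnmt1 and Ezh2, with a term for the S number for Ezh1, and without the extraction term for Ezh2 and Ezh1.

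Fetal RNA-binding proteins of the Igf2bp family were nearly gone from adult β cells. They bind growth-related messages, among them that of insulin-like growth factor 2, and are typical of fetal tissue. Igf2bp2 (chromosome 16, 22059009 to 22163299) stood at 16.4, 11.1, 24.8, 18.6 and 22.2 CPM at P10 and 0 to 1.54 CPM (median 0.385) in adults. Igf2bp3 was at 7.60, 7.59, 8.58, 6.02 and 4.998 CPM at P10 and 0 to 0.748 CPM (median 0.287) in adults. Igf2bp1 was the most variable of the 3 among young libraries, at 3.12, 0.286, 1.22, 1.04 and 5.21 CPM, and adults held 0 to 0.0926 CPM (median 0). For each, no adult reached the lowest P10 library. The log2 folds were -5.21 ± 0.53 (adjusted p = 5.74e-11), -4.44 ± 0.46 (adjusted p = 8.67e-11) and -6.15 ± 0.77 (adjusted p = 1.45e-08), in that order, and that of Igf2bp1 rests on very few adult counts. The rest of the list of 13 tested genes moved little: 4 fell in all, 1 rose, and the median log2 fold was -0.08. Of the whole list 38.5% were called, beside 18.8% of all tested genes. Hmga2, a chromatin protein of growing cells, had -0.08 ± 0.27 (adjusted p = 0.878) and was not called, and Nr6a1, a nuclear receptor, was called higher (0.99 ± 0.34 (adjusted p = 0.0303)) but had 0.97, 0.93, 0.96 and 0.87 without P10 replicates 1, 2, 3 and 4 in turn (adjusted p = 0.0667 to 0.0988). The call for Nr6a1 was lost among Qiagen libraries, among TRIzol libraries, with adults of at most 5% acinar counts, with female adults and with the 26 libraries fitted alone.

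Imprinted genes, which are expressed from 1 parental copy and often govern growth, went both ways. Of 38 tested, 5 rose and 6 fell, 28.9% together beside 18.8% of all tested genes, with a median log2 fold of 0.15. Dlk1 (chromosome 12, 109452485 to 109463336), a transmembrane regulator of growth in fetal tissues, had the largest fall among genes of at least 10 CPM at P10 that mark no other cell type. It was at 49.4, 18.54, 53, 39.08 and 68.0 CPM at P10 and 0.191 to 2.80 CPM (median 0.831) in adults. The lowest P10 library held several times the level of the highest adult, and the log2 fold was -5.41 ± 0.40 (adjusted p = 1.6e-15). Nnat, a small membrane protein of young β cells and neurons, was at 176, 240.1, 258, 239 and 242 CPM at P10 and 9.38 to 54.2 CPM (median 24.2) in adults, with P10 replicate 1 apart from the other 4 but still above every adult (log2 fold -3.12 ± 0.31 (adjusted p = 1.71e-11)). Grb10, an adaptor that damps insulin and growth factor signals, fell (-1.87 ± 0.34 (adjusted p = 4.3e-05)), as did Gnas, which encodes the stimulatory G protein subunit (-0.50 ± 0.12 (adjusted p = 0.00153)). Rising members included Snrpn (1.46 ± 0.18 (adjusted p = 5.97e-09)), a splicing protein, Ndn (1.71 ± 0.27), a growth suppressor of neurons, and Nap1l5 (1.62 ± 0.23), a relative of histone chaperones. For Snrpn the P10 libraries held 25.9, 33.9, 24.2, 22.3 and 25.5 CPM and the adults 61.1 to 101 CPM (median 72.6), without overlap. Igf2, the fetal growth factor, was at 1.21 to 6.93 CPM at P10 and 0.483 to 12.1 CPM (median 2.50) in adults and was not called (adjusted p = 0.824). Alternative fits lost the call among Qiagen libraries for Gnas.

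The lists of Notch and Wnt signalling had no larger share of called genes than all tested genes (18.8%). Of 31 Notch genes, 3 fell, Dlk1 included, and 1 rose (12.9% called). Mfng, a sugar transferase that modifies Notch receptors, was at 8.34, 13.04, 7.71, 6.92 and 10.5 CPM at P10 and 0 to 1.11 CPM (median 0.503) in adults, again fully apart (log2 fold -4.31 ± 0.50 (adjusted p = 2.45e-09)), and the receptor Notch1 had 0.23 ± 0.21 (adjusted p = 0.511) and was not called. Numbl, a Notch antagonist, fell as well (-1.70 ± 0.32 (adjusted p = 5.46e-05)). Hey1, a transcription factor induced by Notch, was called higher on very low counts (0 to 0.247 CPM at P10, 0 to 2.17 CPM (median 0.775) in adults), with a fitted log2 fold of 3.51 ± 1.17 (adjusted p = 0.0262) and 3.19, 3.37, 3.30 and 3.40 without P10 replicates 2, 3, 4 and 5 in turn (adjusted p = 0.0646 to 0.079). Of 48 Wnt genes, 3 rose and 6 fell (18.8% called). Wnt4, a noncanonical ligand, rose from 27.6, 66.8, 39.97, 39.5 and 38.99 CPM at P10 to 74.7 to 249.5 CPM (median 147.6) in adults, without overlap (log2 fold 1.72 ± 0.25 (adjusted p = 4.08e-07)). Sfrp5, a secreted Wnt inhibitor, was at 3.90, 6.45, 1.03, 2.70 and 2.83 CPM at P10 and 14.9 to 87.0 CPM (median 43.2) in adults (log2 fold 3.51 ± 0.56 (adjusted p = 3.75e-06)). Wnt5b, another ligand, fell (-1.57 ± 0.44 (adjusted p = 0.00722)). Nkd1, a Wnt antagonist with counts near 0, was called lower (-2.83 ± 0.83 (adjusted p = 0.0107)) and had -1.71 without P10 replicate 1 (adjusted p = 0.243). Under other settings the call was lost among Qiagen libraries for Hey1 and Wnt5b, among TRIzol libraries for Hey1, Wnt5b and Nkd1, with adults of at most 130 days for Hey1 and Wnt5b, and with adults of at most 5% acinar counts for Nkd1. Calls were lost with male adults for Hey1 and Nkd1, with female adults for Hey1, with a term for the S number for Wnt5b, and with voom for Nkd1.

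Of 37 receptors for growth factors and cytokines, 6 were higher (16.22%) and 2 lower (5.405%), beside 8.84% and 9.98% of all tested genes. Together 21.6% were called, near the 18.8% of all tested genes. The median log2 fold was 0.10, with 20 folds above 0 and 17 below. Prlr, the prolactin receptor, through which β cells respond to pregnancy hormones (chromosome 15, 10177238 to 10349190), was at 317, 474, 247, 297 and 194 CPM at P10 and 646 to 1677 CPM (median 1066) in adults. Every adult lay above every P10 library (log2 fold 1.71 ± 0.22 (adjusted p = 2.49e-08)). Ntrk2, a neurotrophin receptor, and Il6st, the shared chain of interleukin-6 receptors, rose with 1.11 ± 0.21 (adjusted p = 8.43e-05) and 1.18 ± 0.25 (adjusted p = 0.000433), both with overlap. Ret, the receptor of glial cell line-derived factors, fell from 46.04 to 64.4 CPM to 15.1 to 37.6 CPM (median 27.7) without overlap (-1.18 ± 0.21 (adjusted p = 2.79e-05)), and the coreceptor Gfra3 fell with it (-1.96 ± 0.48 (adjusted p = 0.00194)), with overlap. Fgfr1, a fibroblast growth factor receptor, rose (1.64 ± 0.43 (adjusted p = 0.00425)), and across adults it followed the acinar sum (Spearman 0.56), with 1.39 (adjusted p = 0.0472) among adults of at most 5% acinar counts. Other fits ended the call among Qiagen libraries for Ntrk2, Il6st, Gfra3 and Fgfr1, among TRIzol libraries for Gfra3 and Fgfr1, and with adults of at most 130 days for Gfra3.

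Genes of growing neurites and of the cytoskeleton, which young endocrine cells share with neurons, fell in 11 of 30 members (36.67%) and rose in 3 (10.0%). Among all tested genes 9.98% fell and 8.84% rose. The median log2 fold of the list was -0.52. Stathmins split. Stmn1, which destabilises microtubules in dividing cells, was at 76.8, 92.0, 68.3, 80.9 and 72.3 CPM at P10 and 5.82 to 41.7 CPM (median 17.8) in adults, while Stmn3, a neuronal relative, was at 4.49, 4.67, 3.32, 3.91 and 3.33 CPM and 24.1 to 65.1 CPM (median 40.5). Neither pair of ranges overlapped, and the log2 folds were -2.04 ± 0.28 (adjusted p = 9.42e-08) and 3.39 ± 0.27 (adjusted p = 9.56e-15). Tuba1a and Tubb3, tubulins of young neurons, had -0.71 ± 0.15 and -0.97 ± 0.22. Crmp1, a mediator of growth cone signals, rose (1.83 ± 0.25 (adjusted p = 9.83e-08)), and so did Dcx, a microtubule protein of migrating neurons (1.18 ± 0.25 (adjusted p = 0.000434)). Nrep, a small protein of regenerating neurons, had the smallest adjusted p of all tested genes. It was at 97.7, 96.2, 93.7, 83.5 and 113 CPM at P10 and 5.60 to 16.6 CPM (median 11.6) in adults, far apart (log2 fold -3.06 ± 0.17 (adjusted p = 1.4e-21)). Across adults Nrep followed the acinar sum (Spearman 0.56), and its fold was -3.27 (adjusted p = 1.97e-15) among adults of at most 5% acinar counts. Not every call held, since it was lost among Qiagen libraries for Dcx, and among TRIzol libraries for Tuba1a and Tubb3.

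Some transcripts of peptide hormones differed between day 10 and adulthood, although the share of the list that was called was near that of all genes. Sorted bulk RNA does not show which islet cell held them. Marker genes of δ and PP cells held 0.218 to 0.392% of counts at P10 (median 0.301%) and 0.0503 to 0.550% in adults (median 0.181%). The part of other islet cells in the values below was not tested. Of 40 tested peptide hormones and granins, 6 rose and 3 fell, 22.5% together beside 18.8% of all tested genes, with a median log2 fold of 0.40. Pdyn, the precursor of dynorphin opioids (chromosome 2, 129686549 to 129699938), was at 2.89, 0.898, 0.590, 1.26 and 0.604 CPM at P10 and 15.9 to 337 CPM (median 74.9) in adults. Penk, the precursor of enkephalins, was at 1.21, 0.449, 0.612, 0.285 and 0.0724 CPM at P10 and 2.43 to 68.4 CPM (median 11.4) in adults. In both genes the lowest adult exceeded the highest P10 library, and the log2 folds were 6.32 ± 0.76 (adjusted p = 7.01e-09) and 4.98 ± 0.99 (adjusted p = 0.00016). Npy, neuropeptide Y, rose on average but with overlap, from 74.1, 140.6, 72.6, 109.2 and 71.2 CPM at P10 to 104 to 921 CPM (median 418) in adults (log2 fold 2.05 ± 0.61 (adjusted p = 0.0128)). Gal, galanin, spanned 0.177 to 109.4 CPM (median 7.47) among adults and 0.0474 to 0.449 CPM at P10, a log2 fold of 5.81 ± 1.69 (adjusted p = 0.0103). Gal followed the acinar sum across adults (Spearman 0.82), and among adults of at most 5% acinar counts it was no longer called (1.99 (adjusted p = 0.373)). Pyy, peptide YY, moved against these: it was at 1250.0, 1365, 1510.0, 1313 and 2069 CPM at P10 and 69.1 to 703.3 CPM (median 149.6) in adults, without overlap (log2 fold -3.44 ± 0.45 (adjusted p = 6.9e-08)). Ghrl, ghrelin, fell too (-4.86 ± 0.62 (adjusted p = 2.33e-08)), from 0.217 to 3.53 CPM to 0 to 0.354 CPM (median 0.0292). Scg5, a chaperone of prohormone convertase 2, rose (0.78 ± 0.22 (adjusted p = 0.00884)). The call ended among Qiagen libraries for Penk, Npy, Gal and Scg5, among TRIzol libraries for Gal and Scg5, with adults of at most 130 days for Npy and Scg5, and with male adults for Npy. Alternative fits lost the call with female adults for Scg5, with a term for the S number for Npy, and with voom for Gal.

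Markers of islet identity sat beside these peptides as follows. Glucagon, the α cell hormone, was spread widely in both groups, at 2861, 6013, 1300.0, 425 and 676 CPM at P10 and 118 to 6976 CPM (median 1056) in adults, and Gcg was not called (adjusted p = 0.437). Sst and Ppy, hormones of δ and PP cells, had 1.25 ± 0.62 (adjusted p = 0.161) and -0.97 ± 0.61 (adjusted p = 0.285) and were not called. Of the β cell markers, Pdx1 (-0.74 ± 0.18 (adjusted p = 0.00175)) and Neurod1 (-0.51 ± 0.15 (adjusted p = 0.0107)), transcription factors of endocrine cells, fell without overlap between the groups. Mafa and Ucn3, both tied to maturity, had 0.55 ± 0.43 (adjusted p = 0.405) and 0.53 ± 0.30 (adjusted p = 0.228), and Iapp and the glucose transporter Slc2a2 had 0.05 ± 0.24 and 0.09 ± 0.25, none of them called. Ero1lb, an oxidase that helps proinsulin fold, and G6pc2, an islet glucose-6-phosphatase, were called higher (0.57 ± 0.19 (adjusted p = 0.032) and 0.60 ± 0.22 (adjusted p = 0.0493)). Both calls were lost when any 1 P10 library was left out: Ero1lb had 0.57, 0.55, 0.58, 0.57 and 0.55 without P10 replicates 1, 2, 3, 4 and 5 in turn (adjusted p = 0.0533 to 0.084), and G6pc2 had 0.55, 0.59, 0.58, 0.66 and 0.61 without P10 replicates 1, 2, 3, 4 and 5 in turn (adjusted p = 0.0551 to 0.136). Under other settings the call was lost among Qiagen libraries for Pdx1, Neurod1, Ero1lb and G6pc2, among TRIzol libraries for Ero1lb and G6pc2, with adults of at most 130 days for Pdx1, Neurod1, Ero1lb and G6pc2, and with adults of at most 5% acinar counts for Neurod1 and G6pc2. Calls were lost with male adults for Ero1lb and G6pc2, with female adults for Ero1lb and G6pc2, with a term for the S number for Ero1lb and G6pc2, and without the low-count filter for G6pc2.

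Genes that make or carry small transmitters were read at the level of the transcript only. Of 22 tested genes for transmitter synthesis and transport, 5 rose (22.73%) and 2 fell (9.091%), beside 8.84% and 9.98% of all tested genes. The median log2 fold was 0.05, with 12 folds above 0 and 10 below. Gad2, which makes GABA (chromosome 2, 22621015 to 22693877), was at 0.718, 0.347, 0.852, 1.73 and 2.12 CPM at P10 and 4.53 to 31.2 CPM (median 12.4) in adults. Tph1, the enzyme that limits serotonin synthesis, was at 17.6, 11.6, 6.20, 7.85 and 10.1 CPM at P10 and 32.1 to 203.2 CPM (median 75.5) in adults. Both rose without overlap, with log2 folds of 3.99 ± 0.76 (adjusted p = 7.45e-05) and 3.10 ± 0.56 (adjusted p = 3.12e-05). Th, which limits dopamine synthesis, moved the other way, from 57.1, 62.7, 63.2, 87.7 and 99.4 CPM at P10 to 6.77 to 47.19 CPM (median 23.6) in adults (log2 fold -1.67 ± 0.26 (adjusted p = 2.29e-06)). Maoa, which breaks down serotonin and dopamine, and Gls2, which makes glutamate from glutamine, rose (1.22 ± 0.22 (adjusted p = 2.32e-05) and 2.35 ± 0.52 (adjusted p = 0.000658)). Slc6a4, the serotonin transporter, was called higher on low levels (0.0224, 0, 0, 0 and 0 CPM at P10, 0 to 4.67 CPM (median 0.0704) in adults), with a Spearman of 0.81 with the acinar sum and no call among adults of at most 5% acinar counts (adjusted p = 0.552). Its call was also lost when any 1 P10 library was left out (adjusted p = 0.075 to 0.119). For Gls2 the Spearman with the acinar sum was 0.69, and the fold among adults of at most 5% acinar counts was 1.84 (adjusted p = 0.0155). Glrb, a subunit of glycine receptors, was among the largest rises outside this list, at 4.19, 2.55, 0.371, 2.13 and 1.16 CPM at P10 and 11.97 to 61.3 CPM (median 36.3) in adults (log2 fold 4.11 ± 0.37 (adjusted p = 6.7e-13)). Other fits ended the call among Qiagen libraries for Th, Maoa and Slc6a4, among TRIzol libraries for Slc6a4, with adults of at most 130 days for Slc6a4, and with female adults for Slc6a4. Not every call held, since it was lost with a term for the S number for Slc6a4, with the 26 libraries fitted alone for Slc6a4, with voom for Slc6a4, and without the low-count filter for Slc6a4.

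**Figure D3:**
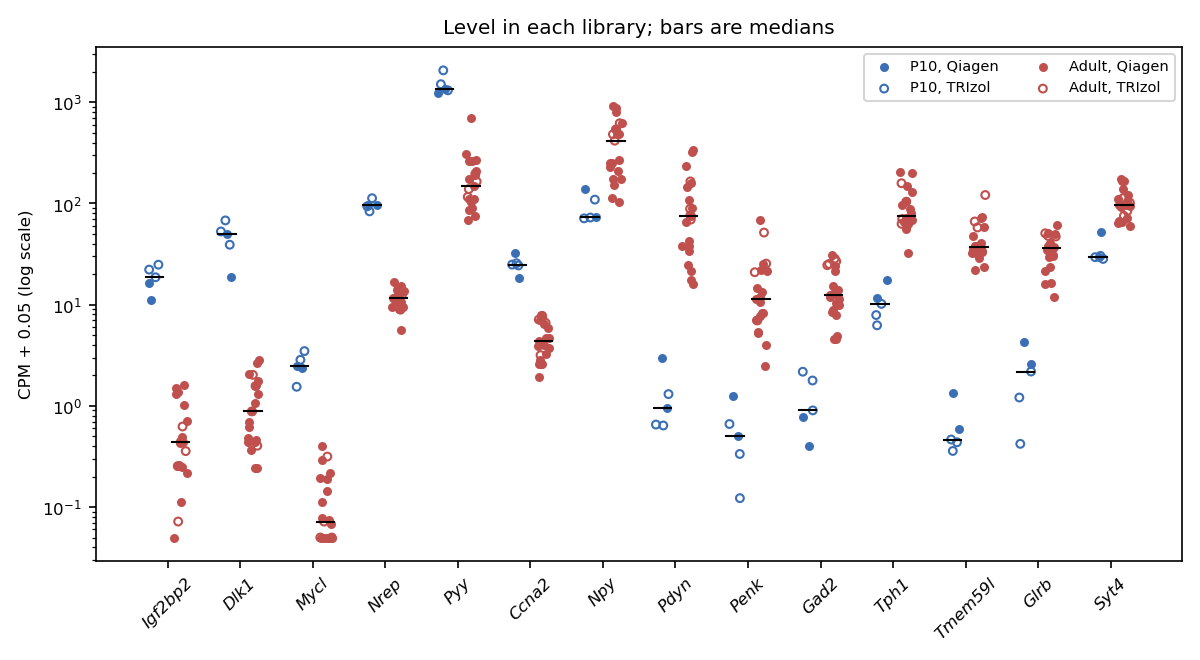
Level of 14 genes in each library as CPM + 0.05 on a log axis, P10 in blue and adults in red, with filled points for Qiagen and open points for TRIzol extraction and bars at the group medians. For all but Npy, the P10 and adult points of a gene are fully apart, falling from left to right for Igf2bp2, Dlk1 and Mycl and rising for Pdyn, Penk, Gad2 and Tph1.

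The release machinery itself was mixed, with 8 of 58 genes higher, 6 lower and a median log2 fold of 0.05. Together 24.1% were called, beside 18.8% of all tested genes. Syt4, a synaptotagmin that sets the calcium response of release, was at 51.7, 29.7, 28.3, 30.31 and 29.43 CPM at P10 and 60.5 to 174 CPM (median 96.7) in adults. P10 replicate 1 stood well above the other 4 but below every adult (log2 fold 1.59 ± 0.25 (adjusted p = 2.23e-06)). Syt3, a calcium sensor of high affinity, rose (1.25 ± 0.22 (adjusted p = 1.27e-05)). Snap25, a core fusion protein, rose (0.62 ± 0.19 (adjusted p = 0.0148)), with 0.59 without P10 replicate 2 (adjusted p = 0.0505). Vamp3, a vesicle protein of constitutive traffic, fell from 93.4, 70.3, 80.6, 81.0 and 86.0 CPM at P10 to 19.97 to 47.6 CPM (median 29.6) in adults, without overlap (log2 fold -1.45 ± 0.15 (adjusted p = 2.43e-11)). Rab3b, a small GTPase of vesicles, fell as well (-1.14 ± 0.27 (adjusted p = 0.00159)). Among 18 genes of prohormone processing and zinc, 3 rose and 1 fell (22.2% called). Ptprn, an autoantigen of the granule membrane, had 0.96 ± 0.23 (adjusted p = 0.00171), and Ica1, an islet autoantigen, -0.71 ± 0.18 (adjusted p = 0.00327). The call ended among Qiagen libraries for Syt3, Snap25, Rab3b, Ptprn and Ica1, with adults of at most 130 days for Snap25 and Rab3b, with adults of at most 5% acinar counts for Ica1, and with male adults for Snap25 and Ica1. Alternative fits lost the call with a term for the S number for Snap25, and without the extraction term for Snap25.

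Receptors that tune secretion were called in 21 of 57 tested members (36.8%, beside 18.8% of all tested genes). Of these 12 were higher (21.05% of the list, beside 8.84%) and 9 lower (15.79%, beside 9.98%), and the median log2 fold was 0.30. Crhr1, the receptor of corticotropin-releasing hormone, was at 1.48, 0.857, 0.306, 1.304 and 0.724 CPM at P10 and 3.32 to 20.3 CPM (median 9.37) in adults, and Vipr1, a receptor of vasoactive intestinal peptide, at 10.6, 11.9, 3.93, 6.83 and 6.95 CPM and 15.3 to 48.8 CPM (median 24.2). Adults lay wholly above P10 in both genes (log2 folds 3.39 ± 0.54 (adjusted p = 3.66e-06) and 1.49 ± 0.24 (adjusted p = 4.16e-06)). P2ry1 and P2ry14, receptors of extracellular nucleotides, rose with 1.66 ± 0.31 (adjusted p = 5.77e-05) and 2.53 ± 0.39 (adjusted p = 1.28e-06), Oxtr, the oxytocin receptor, with 2.67 ± 0.52 (adjusted p = 9.28e-05), and Drd2, a dopamine receptor, with 4.04 ± 1.01 (adjusted p = 0.00249) from 0 to 0.362 CPM to 0.248 to 3.34 CPM (median 1.23). P2ry14 followed the acinar sum across adults (Spearman 0.63 over 21 libraries), with 2.24 (adjusted p = 0.000106) among adults of at most 5% acinar counts. Ffar4, a receptor of long-chain fatty acids, fell from 6.93, 10.4, 14.8, 14.2 and 14.3 CPM at P10 to 0.0339 to 5.72 CPM (median 1.86) in adults (log2 fold -2.65 ± 0.44 (adjusted p = 7.09e-06)). Galr1, a galanin receptor, fell (-1.35 ± 0.26 (adjusted p = 9.34e-05)), opposite in sign to its ligand. The call for that ligand, Gal, was lost among adults of at most 5% acinar counts. Under other settings the call was lost among Qiagen libraries for Oxtr, among TRIzol libraries for Drd2 and Galr1, and with adults of at most 130 days for Drd2.

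Channels were called about as often as all tested genes. Of 50, 4 were higher and 4 lower, beside 8.84% and 9.98% of all tested genes, and 42 were not called. Kcnf1, a silent potassium channel subunit found among the largest rises, was at 0.516, 0.367, 0.612, 0.0711 and 0 CPM at P10 and 1.62 to 37.01 CPM (median 6.19) in adults (4.88 ± 0.93 (adjusted p = 7.76e-05)). Kcnb2, a delayed rectifier subunit, fell from 6.46, 6.73, 5.92, 6.54 and 1.69 CPM at P10, where replicate 5 was far below the rest, to 0 to 3.06 CPM (median 1.99) in adults (-1.65 ± 0.40 (adjusted p = 0.00161)). Kcnk16, a leak channel of β cells, fell (-1.70 ± 0.47 (adjusted p = 0.00626), 14.8 to 32.0 CPM at P10, 1.32 to 47.1 CPM (median 8.80) in adults), with P10 replicate 2 high, and Kcnh1, a voltage-gated potassium channel, rose (1.78 ± 0.43 (adjusted p = 0.00179)). Among adults of at most 5% acinar counts the call for Kcnk16 was lost (-1.5 (adjusted p = 0.0631)). Calls were lost among Qiagen libraries for Kcnk16 and Kcnh1, among TRIzol libraries for Kcnb2, with adults of at most 130 days for Kcnb2, and with male adults for Kcnk16. Other fits ended the call without the extraction term for Kcnk16.

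Amino acid metabolism and the stress response it is tied to rose in part of their members. In the amino acid list 9 of 36 rose and 2 fell (median log2 fold 0.38), 30.6% together. In the stress list 8 of 28 rose and none fell (median 0.29), 28.6% together. Of 20 transfer RNA synthetases 5 rose and 3 fell, so that these were called in both directions. Beside these counts, 18.8% of all tested genes were called, 8.84% higher and 9.98% lower. Cbs, which turns homocysteine into cystathionine, was at 12.2, 10.8, 7.95, 5.88 and 4.71 CPM at P10 and 51.8 to 99.3 CPM (median 69.9) in adults, far apart (log2 fold 3.02 ± 0.36 (adjusted p = 3.85e-09)). Bcat1, which transfers the amino group of branched-chain amino acids, was at 0.135, 0, 0.0218, 0.0949 and 0.0483 CPM at P10 and 0.403 to 22.3 CPM (median 3.55) in adults (6.52 ± 1.14 (adjusted p = 1.94e-05)). The size of the Bcat1 fold rests on very few P10 counts. Aldh1l2, an enzyme of mitochondrial folate metabolism, rose (2.14 ± 0.36 (adjusted p = 9.3e-06)), as did Phgdh and Psat1 of serine synthesis (1.44 ± 0.35 and 0.86 ± 0.29) and Got1, an aspartate aminotransferase (0.59 ± 0.14). Psat1 had 0.72 and 0.81 without P10 replicates 3 and 5 in turn (adjusted p = 0.0672 to 0.104). Asns, asparagine synthetase, had 0.56 ± 0.22 (adjusted p = 0.0679) and was not called. Ddit3, a transcription factor of prolonged stress, was at 11.9, 12.04, 12.8, 13.2 and 11.4 CPM at P10 and 21.98 to 55.5 CPM (median 31.3) in adults, and Trib3, a pseudokinase it induces, at 3.43, 2.90, 1.59, 3.49 and 1.38 CPM and 4.28 to 25.18 CPM (median 9.11). Both rose without overlap (1.24 ± 0.20 (adjusted p = 4.81e-06) and 2.02 ± 0.34 (adjusted p = 9.26e-06)), and Atf5, a related factor, and Chac1, a glutathione-degrading target, rose with overlap (1.37 ± 0.43 and 1.47 ± 0.36). Atf5 had 1.13 without P10 replicate 1 (adjusted p = 0.0873). Atf4, the factor at the head of this response, rose (0.56 ± 0.19 (adjusted p = 0.0285)) but had 0.54 and 0.45 without P10 replicates 1 and 2 in turn (adjusted p = 0.0783 to 0.145). Of the synthetases, Cars, for cysteine, Nars, for asparagine, and Sars, for serine, rose (0.79 ± 0.18, 0.56 ± 0.16 and 0.38 ± 0.12), and Gars, for glycine, fell (-0.53 ± 0.16 (adjusted p = 0.0157)), with -0.47 without P10 replicate 2 (adjusted p = 0.0775). Not every call held, since it was lost among Qiagen libraries for Phgdh, Psat1, Got1, Atf5, Chac1, Cars, Nars, Sars and Gars, among TRIzol libraries for Phgdh, Psat1, Got1, Atf5, Chac1, Atf4, Nars and Gars, with adults of at most 130 days for Psat1, Got1, Atf4, Nars and Sars, and with adults of at most 5% acinar counts for Psat1, Atf5, Atf4 and Gars. The call ended with male adults for Sars, with female adults for Psat1, Atf4 and Gars, with a term for the S number for Psat1, Nars and Sars, and with the 26 libraries fitted alone for Atf5.

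Fgf21, a stress-induced hormone, and Nupr1, a small chromatin protein of stressed pancreas, were called in the stress list with levels that followed acinar RNA. Fgf21 was at 0.0224, 0.0204, 0.0218, 0 and 0 CPM at P10 and 0.130 to 11.8 CPM (median 1.92) in adults, and Nupr1 at 2.89, 3.79, 2.42, 1.97 and 1.93 CPM and 5.74 to 659.6 CPM (median 135.5). Both were called (adjusted p = 0.000255 and 0.00029), Nupr1 with a log2 fold of 5.22 ± 1.08. The P10 libraries held so few Fgf21 reads that its fitted fold depends on the prior count and is not given. Across the 21 adults both followed the summed acinar counts (Spearman 0.95 for each). Among adults of at most 5% acinar counts both were called still, Nupr1 with 3.03 (adjusted p = 0.01). For Ddit3 and Trib3 the folds there were 1.14 (adjusted p = 0.00014) and 1.95 (adjusted p = 8.43e-05). The composite site of ATF4 and its partners, searched as TGATGNAAT on both strands, was found in the promoters of Fgf21 and Nupr1, 2 of 27 promoters of the stress list (7.41%), in that of Pycr1, 1 of 33 of the amino acid list (3.03%), and in 0.553% of all promoters. The 3 windows are shown because they are the only matches in these lists.
Fgf21, chr7:45615577-45615676, minus strand: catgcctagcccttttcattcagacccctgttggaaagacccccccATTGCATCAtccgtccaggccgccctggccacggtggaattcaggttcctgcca
Nupr1, chr7:126625528-126625627, minus strand: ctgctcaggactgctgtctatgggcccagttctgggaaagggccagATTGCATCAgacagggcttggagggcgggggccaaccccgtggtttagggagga
Pycr1, chr11:120643798-120643897, minus strand: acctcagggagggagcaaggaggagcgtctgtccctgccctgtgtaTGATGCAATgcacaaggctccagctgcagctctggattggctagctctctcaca
In Pycr1, which completes proline synthesis and rose (0.67 ± 0.20 (adjusted p = 0.0145), and 0.62 without P10 replicate 2 (adjusted p = 0.0573)), the match reads in the gene's direction, and in Fgf21 and Nupr1 on the other strand. Alternative fits lost the call among Qiagen libraries for Pycr1, among TRIzol libraries for Nupr1, with adults of at most 130 days for Pycr1, and with female adults for Pycr1. Under other settings the call was lost with a term for the S number for Pycr1.

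In the list of glucose and mitochondrial fuel use, 5 of 44 rose and 6 fell, 25% together beside 18.8% of all tested genes. Eno2, the neuronal enolase of glycolysis, was at 8.81, 7.32, 12.9, 10.9 and 21.13 CPM at P10 and 46.25 to 109.5 CPM (median 76.1) in adults, without overlap (log2 fold 2.90 ± 0.27 (adjusted p = 1.31e-12)). Aldoa, an aldolase, rose (0.75 ± 0.11 (adjusted p = 6.33e-07)), with P10 replicate 2 above the other 4 and below all adults, as did Pfkp, a phosphofructokinase (1.41 ± 0.33 (adjusted p = 0.00106)). Idh2, a mitochondrial dehydrogenase, fell from 217, 219, 228, 208 and 257 CPM to 97.7 to 178 CPM (median 135.6) (-0.71 ± 0.12 (adjusted p = 4.9e-06)), with a Spearman of 0.58 with the acinar sum and -0.90 (adjusted p = 1.4e-06) among adults of at most 5% acinar counts. Of 27 lipid and sterol genes, 2 rose and 5 fell (25.9% called), among them Mvd, Fdps and Hmgcs1 of sterol synthesis (-0.77 ± 0.19, -0.56 ± 0.17 and -0.54 ± 0.18). Fdps had -0.50 and -0.50 without P10 replicates 2 and 4 in turn (adjusted p = 0.0519 to 0.0712), and Hmgcs1 -0.40, -0.50 and -0.51 without P10 replicates 1, 2 and 4 in turn (adjusted p = 0.0714 to 0.199). Fads1, a fatty acid desaturase, and Acss2, which makes acetyl-CoA, rose (0.65 ± 0.19 and 0.92 ± 0.28), Acss2 with 0.83 without P10 replicate 4 (adjusted p = 0.0508). Of 24 clock genes 2 rose and 2 fell (16.7% called), with the period gene Per3 at -1.94 ± 0.50 (adjusted p = 0.0033). The repressor Bhlhe40 fell (-0.85 ± 0.29), with -0.89, -0.84 and -0.70 without P10 replicates 1, 4 and 5 in turn (adjusted p = 0.0547 to 0.122). Clock, an activator of the clock, was called higher (0.50 ± 0.18). Leaving out single libraries gave 0.56, 0.44, 0.46 and 0.46 without P10 replicates 1, 3, 4 and 5 in turn (adjusted p = 0.0535 to 0.133) for Clock. Of 42 cytosolic ribosomal proteins 1 was called, Rpl15, in the lower direction (-0.42 ± 0.14 (adjusted p = 0.0228)), which had -0.39 and -0.35 without P10 replicates 2 and 4 in turn (adjusted p = 0.0894 to 0.1). Of 21 genes of MHC class I presentation 1 was called, the peptide trimmer Erap1 (-0.91 ± 0.24 (adjusted p = 0.00371)). Among 20 genes tied to β cell ageing, 3 rose and 2 fell: Bambi, a decoy receptor, and Tnfrsf11b, osteoprotegerin, rose (0.92 ± 0.21 and 1.49 ± 0.29), and Lmnb1, lamin B1, fell (-1.87 ± 0.33) from 13.8, 3.73, 13.4, 14.7 and 14.03 CPM at P10 to 0.102 to 5.36 CPM (median 1.93) in adults, with P10 replicate 2 inside the adult range. The time of day at which samples were taken is not given in the sources used here. Calls were lost among Qiagen libraries for Pfkp, Idh2, Fdps, Hmgcs1, Fads1, Acss2, Per3, Bhlhe40, Clock, Rpl15, Erap1 and Tnfrsf11b, among TRIzol libraries for Mvd, Fdps, Hmgcs1, Acss2, Per3, Bhlhe40, Clock and Rpl15, with adults of at most 130 days for Mvd, Fdps, Hmgcs1, Fads1, Acss2, Per3, Bhlhe40, Clock and Rpl15, and with adults of at most 5% acinar counts for Hmgcs1, Rpl15 and Erap1. Other fits ended the call with male adults for Pfkp, Fads1, Acss2, Clock and Rpl15, with female adults for Fdps, Hmgcs1, Bhlhe40 and Clock, with a term for the S number for Fdps, Hmgcs1, Acss2, Bhlhe40, Clock and Rpl15, and without the extraction term for Fdps and Rpl15. Not every call held, since it was lost with the 26 libraries fitted alone for Rpl15, and without the low-count filter for Clock.

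**Figure D4:**
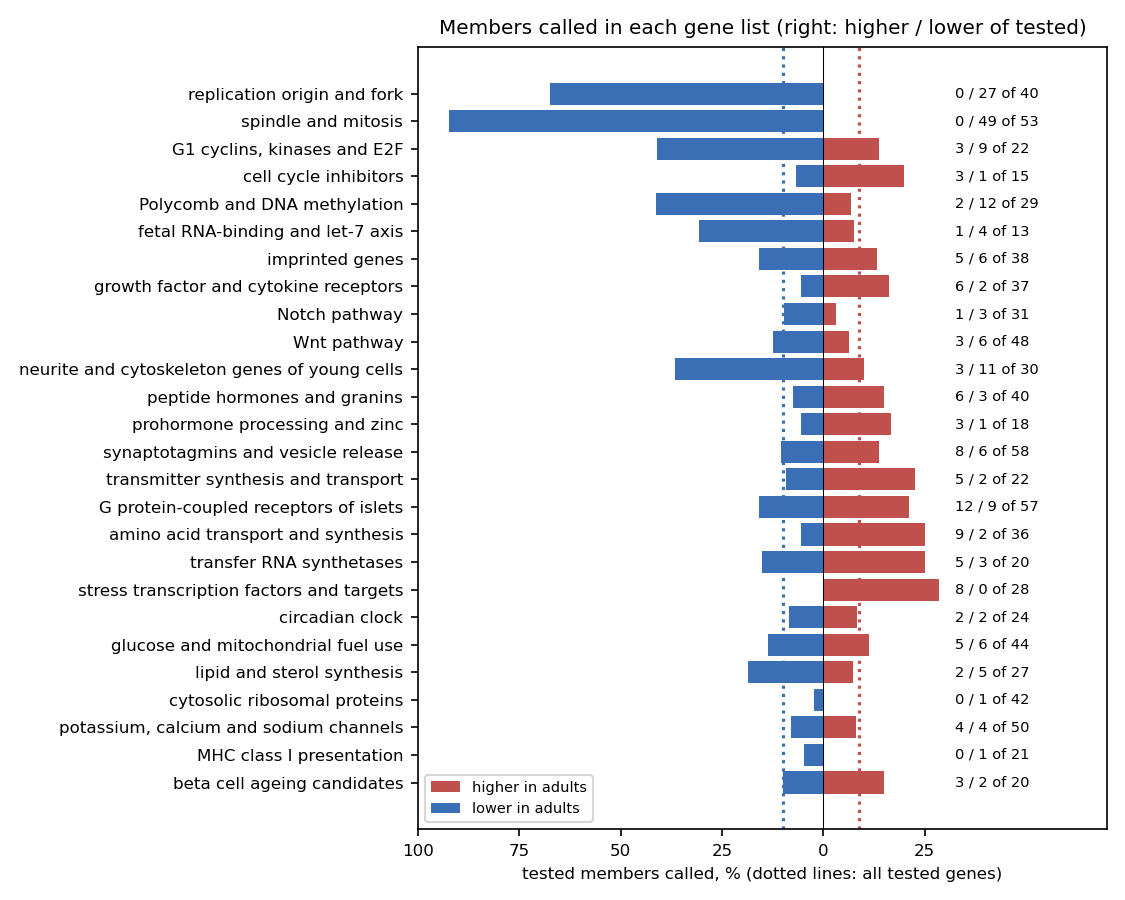
Share of tested members of each of 26 gene lists called higher (red, right) or lower (blue, left) in adults, in percent, with counts at the right edge and dotted lines at the shares of all tested genes (8.84% higher, 9.98% lower). Spindle and mitosis (49 of 53 lower) and replication (27 of 40 lower) extend farthest to the left, and the stress list (8 of 28 higher) farthest to the right.

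The largest single changes held genes that none of these groups contain. Tmem59l, a brain-enriched membrane protein (chromosome 8, 70483855 to 70487348), had the largest rise among genes of at least 10 CPM that mark no other cell type and do not follow acinar counts, at 0.538, 1.28, 0.415, 0.308 and 0.386 CPM at P10 and 22.1 to 121.2 CPM (median 36.9) in adults (log2 fold 6.34 ± 0.49 (adjusted p = 4.08e-15)). C8b, a component of complement, Upk3a, a uroplakin, P3h2, a collagen prolyl hydroxylase, and Zcchc12, a zinc finger protein, rose by 4.99 ± 0.57, 4.06 ± 0.59, 4.03 ± 0.62 and 4.57 ± 0.65 on the log2 scale. Nrsn1, a neuronal vesicle protein, Rerg, a Ras-like GTPase, Aox1, an aldehyde oxidase, Slc39a8, a zinc and manganese importer, and Elovl4, which lengthens very long fatty acids, rose by 3.95 ± 0.44, 3.95 ± 0.51, 3.73 ± 0.63, 3.71 ± 0.64 and 3.69 ± 0.35. In all 15 of the largest rises, the groups did not overlap, as in 4.77% of all tested genes; the rule that chose them asks for P10 libraries on 1 side of the adult median and for a large fold, so nothing is read from that count. Dio1, the deiodinase that activates thyroid hormone, was at 9.66, 15.1, 25.33, 13.9 and 13.3 CPM at P10 and 0 to 1.52 CPM (median 0.439) in adults (log2 fold -5.25 ± 0.54 (adjusted p = 8.67e-11)). Spsb4, an adaptor of a ubiquitin ligase, was at 8.39, 8.12, 7.88, 14.2 and 13.1 CPM at P10 and 0 to 1.95 CPM (median 0.463) in adults (-4.16 ± 0.51 (adjusted p = 7.37e-09)). Dnah9, an axonemal dynein of motile cilia, fell from 31.1, 26.7, 17.4, 20.01 and 21.8 CPM to 0.416 to 7.71 CPM (median 3.70) (-3.14 ± 0.32 (adjusted p = 3.11e-11)). Cyp4f39, a fatty acid hydroxylase, C1qtnf6, a secreted protein, and Pla2g16, a phospholipase, fell with -3.20 ± 0.54, -2.84 ± 0.27 and -2.76 ± 0.38. The 15 largest falls, chosen by the same rule, were free of overlap too. Pla2g16 followed the acinar sum across adults (Spearman 0.83), with -3.60 (adjusted p = 9.27e-09) among adults of at most 5% acinar counts. By the rule, genes on a marker list of another cell type are left out. Msln, a mesothelial surface protein, is such a gene with a larger fall than any of the 15: it was at 399, 224.9, 609, 338 and 664 CPM at P10 and 0.0556 to 22.9 CPM (median 2.77) in adults. The part of mesothelial and stromal RNA at P10 in other falls was not tested.

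Some of these genes also differed between embryos and day 10. In 4 libraries of ICR embryos at E18.5 with the same genotype, the mean level was 522 CPM for Dlk1 and 3226 CPM for Nnat, beside 45.6 and 231 CPM at P10 and 1.05 and 26.7 CPM in adults. Between E18.5 and P10, 6.53% of all tested genes were called, 3.01% higher and 3.52% lower at P10. The log2 fold of P10 against E18.5 was -3.52 (adjusted p = 7.51e-05) for Dlk1 and -3.80 (adjusted p = 2.8e-07) for Nnat. Dnmt3a had 0.08 (adjusted p = 0.896) and Vamp3 -0.09 (adjusted p = 0.85) over that interval, neither of them called. Gad2 had a mean of 0.129 CPM at E18.5, 1.15 CPM at P10 and 15.2 CPM in adults, and the first step was 3.19 (adjusted p = 0.0236). Pdyn and Tmem59l had 0.54 (adjusted p = 0.73) and -1.16 (adjusted p = 0.128) before day 10 and were not called there. Both comparisons use the P10 libraries, so their values are set side by side and no relation between them was tested. The part of other cell types in the E18.5 values was not tested either.

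Does the adult transcriptome go on moving with age? Among the 21 adults, a fit of age with sex and extraction as covariates called 12 of 14518 genes (0.0827%), 7 rising (0.0482%) and 5 falling (0.0344%), while 1827 genes had an unadjusted p below 0.05. Of the 12, 5 were also called between P10 and adults, 4 of them in the same direction. Tmem59l, at 0.308 to 1.28 CPM at P10, rose further by 0.63 ± 0.11 per 100 days on the log2 scale (adjusted p = 0.0207). Kazald1, a secreted protein of the insulin-like growth factor binding family, rose by 0.84 ± 0.15 per 100 days after a log2 fold of 3.47 between P10 and adults. Tle4, a corepressor, and Cyp2d22, a cytochrome P450, rose by 0.62 ± 0.12 and 0.59 ± 0.12 per 100 days. 4932438A13Rik, in the other direction, went from a log2 fold of 0.51 to a slope of -0.40. Genes called with age and not between P10 and adults included Timp2, an inhibitor of matrix proteases, at 0.45 ± 0.08 per 100 days, and Nav2, a gene of neurite outgrowth, at -0.60 ± 0.11. Among Qiagen adults alone the age call was lost for Tmem59l, Kazald1, Tle4, Cyp2d22, Nav2 and 4932438A13Rik (adjusted p = 0.0508 to 0.0657). With voom it was lost for Cyp2d22 and Nav2 (adjusted p = 0.182 and 0.168). Without the extraction term it was lost for Nav2 and 4932438A13Rik (adjusted p = 0.0765 and 0.238). No member of the replication, mitosis or inhibitor lists was called with age. Without the adult of 364 days 2 genes were called, Kazald1 and Rftn2 (adjusted p = 0.0433 for each), and without the extraction term 226. The 4 TRIzol adults were 136 to 289 days old, most of them 289 days, and all 4 were female. All adults of 289 days or more were female, and most of these were TRIzol libraries. Among the oldest adults, age can thus hardly be told apart from sex and extraction.

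**Figure D5:**
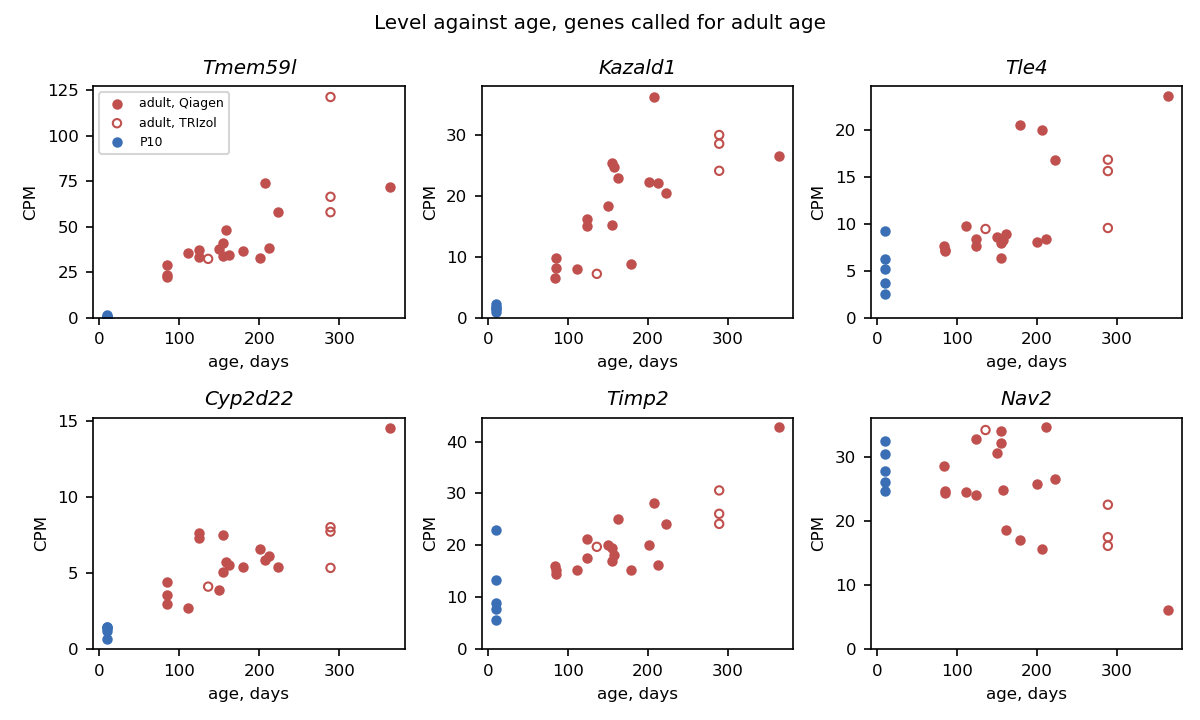
Level (CPM) against age in days for 6 genes called for adult age, with P10 libraries in blue at day 10 and adults in red, filled for Qiagen and open for TRIzol extraction. Tmem59l, Kazald1, Tle4 and Cyp2d22 are low at day 10 and higher in older adults, Timp2 rises among adults, and Nav2 falls.

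Which genes that separate day 10 from adulthood also differed in diabetic β cells? Values come from 2 further pairs of groups, which share no library with the comparison above. T2D mice (n = 7, 58 to 78 days old, BTBR/mix, genotype Ob/Ob with Cherry/+ and 1 or 2 copies of Ins2-Cre, type-2 diabetic) were set against T2H mice (n = 9, 53 to 179 days old, BTBR, Ob/+ with the same reporter and driver, wild type). T1D mice (n = 4, 98 to 150 days old, NOD-ICR, type-1 diabetic) were set against T1ND mice (n = 7, 82 to 212 days old, NOD-ICR, non-diabetic). Strain and diabetes cannot be told apart in the T2D pair, since T2D mice are labelled BTBR/mix, and age was not a term in either fit. Of all tested genes, 9.75% were higher and 8.5% lower in T2D. Of the 1423 genes higher in adults than at P10, 180 (12.65%) were higher and 220 (15.46%) lower in T2D. Of the 1606 genes lower in adults, 226 (14.07%) were higher and 215 (13.39%) lower. Both directions were thus represented in both sets. In T1D, with 0.485% of all genes higher and 0.795% lower, 15 of the 1423 were lower and 5 higher, and 21 of the 1606 were higher and 21 lower. Each T1D library mattered to that count: 206 genes were called in all, 71 without replicate 1, 35 without replicate 2, 102 without replicate 3 and 24 without replicate 4.

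Markers of β cells and of myeloid cells also differed in the T2D pair. Of 12 β cell markers, 10 were lower in T2D and none higher (median log2 fold -0.996). Among all tested genes 8.5% were lower and 9.75% higher in T2D. The β cell markers held 14.6 to 62.5% of counts in T2H and 17.2 to 54.0% in T2D. Of 18 myeloid markers, 6 were higher and none lower (median 1.90), at 0.00351 to 0.0426% of counts in T2H and 0.0164 to 0.133% in T2D. In the T1D pair 1 of the 12 β cell markers was lower, beside 0.795% of all tested genes, and no myeloid marker was called. Myeloid shares were 0.00927 to 0.185% in T1ND and 0.0658 to 0.452% in T1D. Acinar genes held 0.135 to 33.1% of counts in T2H and 0.00902 to 42.6% in T2D. In T1ND they held 2.89 to 23.5%, and in T1D 11.6 to 38.9%. Duct genes held 0.0508 to 0.145% in T2H and 0.108 to 0.162% in T2D. Their shares were 0.0702 to 0.404% in T1ND and 0.307 to 0.584% in T1D. The part of these shifts in the gene values that follow was not tested. Qiagen columns were used for 1 of 9 T2H, 3 of 7 T2D, 7 of 7 T1ND and 3 of 4 T1D libraries.

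Named genes in T2D fell into several patterns. Dlk1, lost between P10 and adulthood, was higher in T2D, with a mean of 0.923 CPM in T2H and 29.6 CPM in T2D (log2 fold 5.03 (adjusted p = 1.7e-10)). Dnah9, another fall, was also higher (2.71 (adjusted p = 1.26e-07)), as was Th (1.21 (adjusted p = 0.000859)). Igf2bp2 and Mycl, which also fell between P10 and adulthood, had 0.14 (adjusted p = 0.92) and 0.41 (adjusted p = 0.824) and were not called. Among genes that rose to adulthood, Penk (-5.58 (adjusted p = 1.02e-05)), Crhr1 (-5.85 (adjusted p = 4.43e-11)), Slc39a8 (-4.32 (adjusted p = 5.64e-07)), Kcnf1 (-3.76 (adjusted p = 0.000537)), Sfrp5 (-3.06 (adjusted p = 1.29e-05)) and Gad2 (-2.79 (adjusted p = 0.00269)) were lower in T2D. Penk, for one, had a mean of 26.9 CPM in T2H and 0.615 CPM in T2D. Pdyn (0.82 (adjusted p = 0.247)), Glrb (0.54 (adjusted p = 0.166)) and Tph1 (-0.35 (adjusted p = 0.634)) were not called, and Zcchc12 (2.14 (adjusted p = 0.000693)) and Nrsn1 (1.67 (adjusted p = 0.000157)) were higher. Of the 53 mitotic genes, 44 were also lower in T2D than in T2H, beside 8.5% of all tested genes. Ccnb2 had -3.30 (adjusted p = 8.38e-05) and Kif22 -2.85 (adjusted p = 2.54e-08).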

How the data were processed

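RNA of sorted mCherry-positive islet cells was sequenced. The deposited expected counts (estimated counts that need not be whole) came from the authors' pipeline; per the submitters' processing notes it used bcl2fastq 2.20.0.422, Bowtie 1.2.2, RSEM 1.3.0 and the genome build mm10. Of all values, 48.55% were not whole. The authors also deposited a table of normalized signal for 16455 genes, which was read only to check its columns. All 20306 genes and 63 libraries were used, and symbols were matched to RefSeq, 19344 by name, 888 by synonym and 74 kept as given.

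Expected counts were rounded and fitted with edgeR 4.0.16 (R 4.3.3): TMM factors, genes kept by filterByExpr, robust quasi-likelihood fit of 9 group means with RNA extraction as covariate, Benjamini-Hochberg adjustment over 16092 genes, and calls at an adjusted p below 0.05. Standard errors are the log2 fold divided by the root of F. Library totals of 28402805 to 44485028 set the counting precision. Adult age was fitted in the 21 adults with sex and extraction. The procedure was tested on simulated data.

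The members and the 26 biology and 13 marker lists were chosen with earlier results of these data known, 1012 of 1026 list genes being found. Genes were named by rule: 15 rises and 15 falls, ranked by log2 fold over called genes whose higher group averaged 10 CPM or more and whose P10 libraries all lay on 1 side of the adult median, no marker of another cell type and, for rises, a Spearman correlation below 0.5 with acinar counts across adults, and the 4 called members of smallest adjusted p in each list. Further genes, such as Mki67, Mafa and Ccnd2, were named for their role after their values had been seen. A few genes that these rules name are not reported here. Alternatives were DESeq2 1.42.0, limma 3.58.1 (voom with sample weights), other scaling and filters, other sets of libraries and leaving out each P10 library. Alternatives on acinar RNA were chosen after seeing the data. Replicates were numbered in accession order.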

Additional observations from a re-analysis of the deposited data

Results flagged for a closer look

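In 9 of 175 named genes 1 P10 library stood apart from the other 4: its gap to the nearest library, as a share of the P10 range on the log2 scale, passed Dixon's limit of 0.71 for 5 samples. Chance alone passes that limit in about 1 of 20 groups. Replicate 2 was lowest for Rrm2 (0.729), Lmnb1 (0.9325) and Mafa (0.7517), and highest for Aldoa (0.8432) and Kcnk16 (0.7199). Replicate 1 was lowest for Nnat (0.7983) and highest for Syt4 (0.8842) and Slc6a4 (1.0, the only P10 library above 0). Replicate 5 was lowest for Kcnb2 (0.9064). The calls for Rrm2, Lmnb1, Aldoa, Kcnk16, Nnat, Syt4 and Kcnb2 held without any 1 P10 library.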

How the results depend on the processing

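The 3029 calls (1423 higher, 1606 lower in adults) became 4850 with voom and sample weights (2407 and 2443), 1003 among Qiagen libraries (356 and 647), 1195 among TRIzol libraries (608 of them higher), 1682 with adults of at most 130 days (826 and 856) and 1557 at 2-fold or more (777 and 780); fewer libraries were compared in 3 of these, and otherwise the cause was not tested. Genes higher in adults made up 35.49% of calls among Qiagen libraries and 46.98% in the fit reported. Of the 3029, 930 were also called in the same direction among Qiagen libraries and 1083 among TRIzol libraries, where 54 of them had the opposite sign. Without single P10 libraries 2289 to 2505 genes were called. Age calls, 12 as reported, were 226 without the extraction term, 6 among Qiagen libraries and 2 without the adult of 364 days. T1D calls, 206 as reported, were 576.0 with DESeq2 and 79 without the extraction term. Of genes higher in adults, 58 and 5 were then lower and 19 and 2 higher in T1D, and of genes lower in adults 47 and 11 were lower and 60 and 7 higher; the cause was not tested. Without single T1D libraries 24 to 102 genes were called, 0 to 8 and 0 to 2 of those higher in adults being lower and higher, and 4 to 6 and 3 to 14 of those lower in adults.

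Only genes that were not called changed the sign of their log2 fold among those named: with a term for the S number Cdkn1a (-0.020), Hmga2 (0.11) and Igf2 (0.066), with adults of at most 130 days Cdkn1a (-0.20), Ins2 (-0.041), Iapp (-0.049) and Slc2a2 (-0.034), without the extraction term Hmga2 (0.10) and Igf2 (0.035), with male adults Hmga2 (0.031), Igf2 (0.24) and Slc2a2 (-0.00352), with adults of at most 5% acinar counts Igf2 (0.026) and Ins2 (-0.061), among Qiagen libraries Ins1 (0.048), with voom Ins2 (-0.00479), among TRIzol libraries Ins2 (-0.31), Iapp (-0.19) and Gcg (0.82), with female adults Ins2 (-0.21) and Iapp (-0.16). Leaving out single P10 libraries gave -0.017 to 0.24 for Cdkn1a, -0.18 to 0.00397 for Hmga2, -0.37 to 0.054 for Igf2, -0.12 to 0.12 for Ins2 and -0.078 to 0.12 for Iapp. No paired analysis was possible because replicate numbers only follow accession order. The S number in the labels, whose meaning is not given, was above 60 in 4 of 5 P10 libraries and 2 of 21 adults, so that it can hardly be told apart from age group. With a term for it, 2367 of the 3029 calls were shared. For Cdkn2a, near 0 CPM in both groups, a difference was not detectable at this depth.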
